A study of Mus musculus with 24 samples.

Results

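The *Nes*-Cre transgene was compared with no transgene in E18.5 mouse kidneys, late in embryonic development, in which *Wt1* was wild type. The comparison holds 6 of the 24 arrays of the series, 3 from *Nes*-Cre kidneys and 3 from wild-type kidneys. It covers the 7939 of 17951 listed genes that had a detection p-value under 0.01 in at least 3 of these 6 arrays. The detection p-value is small where the signal of a gene exceeds that of beads with no target. *Nes*-Cre kidneys carried the transgene Tg(Nes-cre)1Kln and no conditional *Wt1* allele. Wild-type kidneys carried neither Cre nor a conditional allele. Each array held total RNA of whole kidneys of E18.5 embryos, and the methods describe biological triplicates. The strain is given as C57BL/6 in the labels and as a mixed background of more than 1 strain, with varying backcrossing, in the methods, so transgene and strain background cannot be told apart by group. The comparison asks what the Cre driver does without deletion of *Wt1*. Another set of 6 arrays is used only to set the same genes side by side. It holds 3 *Wt1*co/co kidneys, in which both alleles of *Wt1* are conditional, and 3 that carry the *Nes*-Cre transgene in addition.

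*Nes* encodes Nestin, an intermediate filament protein of neural progenitors and of mesenchymal cells of the embryonic kidney. In the *Nes*-Cre line Cre is expressed under *Nes* regulatory sequence, and it is active in the nephrogenic mesenchyme and the nephrons that arise from it, not in the ureteric bud. Cre recombinase cuts and rejoins DNA at loxP sites, and it is known to act at similar sites of the genome as well. Mice of this Cre line are known to be smaller than their littermates, with little pituitary growth hormone. Cell types, DNA damage, the growth hormone axis and innate responses were therefore described as lists of genes.

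The 6 arrays were alike in quality. Background intensity was 152 to 181 with a spread of 10.9 to 13.2, and 7458 to 8262 genes were detected per array. Arrays correlated across genes at r = 0.989 to 0.993 within groups and at 0.983 to 0.992 between them. Levels are normalized log2 intensities, taken after background correction and an offset of 16. The sexes are not labelled and were unevenly spread, since Y-linked transcripts exceeded *Xist* in 2 of 3 *Nes*-Cre arrays and 1 of 3 wild-type arrays. Of the cell types that a dissection could carry along, 16 of 18 adrenal, 11 of 14 fat, 14 of 20 nerve and 9 of 17 liver markers on the array were detected in none of the 6 arrays. The same held for 8 of 16 ureteric tip and 6 of 29 collecting duct markers, so non-detection does not show that a tissue was absent.

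Few genes passed the test. In *Nes*-Cre kidneys 2 genes were higher (0.0252% of those tested) and 4 were lower (0.0504%) at an adjusted p under 0.05, or 6 in all (0.0756%). The changes of all genes had a median of -0.0096 on the log2 scale, and the median standard error was 0.104. Arrays of the groups did not overlap for 691 genes on the higher side (8.70%) and 816 on the lower side (10.3%). At an unadjusted p under 0.05 there were 474 higher (5.97%) and 520 lower genes (6.55%). The fitted change exceeded 0.5 for 176 genes and 1 for 20 genes, in either direction. Of genes detected in all arrays of a group and none of the other, which entered through the group where they were high, there were 19 for *Nes*-Cre and 20 for wild type.

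*Nes* itself did not differ beyond its spread. It was at 7.90, 7.77 and 7.73 in wild-type kidneys and at 7.90, 7.68 and 7.75 in *Nes*-Cre kidneys (log2 change -0.03 ± 0.09, SE, n = 3 per group, adjusted p = 0.93). The Cre transcript is not among the genes listed, so the label of the transgene could not be checked on it.

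*Dlk1* fell most clearly. It encodes a transmembrane protein of the Notch ligand family that is imprinted, expressed from the paternal allele and abundant in embryonic tissue. Its levels were 10.05, 9.96 and 10.06 in wild-type kidneys and 8.66, 8.62 and 8.73 in *Nes*-Cre kidneys. All *Nes*-Cre arrays lay far below all wild-type arrays, with little spread in either group. The log2 change was -1.36 ± 0.08 (SE, n = 3 per group, adjusted p = 0.0017), which is 2.56-fold lower. *Dlk1* was called whichever of the 6 arrays was left out, and in 15 of 18 alternative settings, with changes of -1.56 to -1.06.

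The 3 other genes that fell did so by less. *Prelp*, which encodes a small leucine-rich proteoglycan of connective tissue, was at 7.42, 7.41 and 7.16 in wild-type kidneys and at 6.40, 6.45 and 6.43 in *Nes*-Cre kidneys. The change was -0.91 ± 0.09 (adjusted p = 0.0263). *Upk3b*, which encodes a uroplakin of urothelium and mesothelium, was at 7.10, 7.04 and 7.05 in wild-type kidneys and at 6.34, 6.28 and 6.30 in *Nes*-Cre kidneys. The groups were separated by much more than their spread, and the change was -0.75 ± 0.07 (adjusted p = 0.0263). *Atp6v1d*, which encodes subunit D of the proton-pumping V-ATPase, was at 10.68, 10.62 and 10.69 in wild-type kidneys and at 9.90, 10.00 and 9.93 in *Nes*-Cre kidneys. It changed by -0.72 ± 0.08 (adjusted p = 0.0263), and its arrays did not overlap.

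Both genes that rose were in the same range of change. *Entpd4*, which encodes a nucleoside diphosphatase of the Golgi apparatus and lysosomes, was at 10.49, 10.47 and 10.20 in wild-type kidneys and at 11.23, 11.44 and 11.39 in *Nes*-Cre kidneys. All *Nes*-Cre arrays were higher, by 0.97 ± 0.11 on average (adjusted p = 0.0347). RefSeq lists *Entpd4b*, a near copy of *Entpd4*, so the signal may come from either. *Sftpd*, which encodes surfactant protein D, a secreted collectin, was at 5.39, 5.21 and 5.38 in wild-type kidneys and at 6.10, 6.16 and 6.22 in *Nes*-Cre kidneys. It was not detected in the wild-type arrays, where its value is only a bound, and it entered the test through the *Nes*-Cre arrays. The fitted change was 0.83 ± 0.09 (adjusted p = 0.0263), but 0.12 with neqc, another background correction of limma, and 0.23 without background correction or with the deposited ratios. Its deposited intensities overlapped, at 187 to 212 and 205 to 224, so no fold is given. Over the alternatives *Atp6v1d* and *Entpd4* were each called in 8 of 18, at -0.78 to -0.59 and at 0.87 to 1.03. *Prelp* was called in 7 of 18, at -0.99 to -0.31, *Upk3b* in 6 of 18, at -0.78 to -0.22, and *Sftpd* in 4 of 17. The changes nearest 0 of *Prelp* and *Upk3b* were those with neqc. With an array left out, *Prelp* was the only other gene of the 6 that stayed called, and only without wild type replicate 3. With sex as a covariate only *Dlk1* was called (adjusted p = 0.0169).

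**Figure D1:**
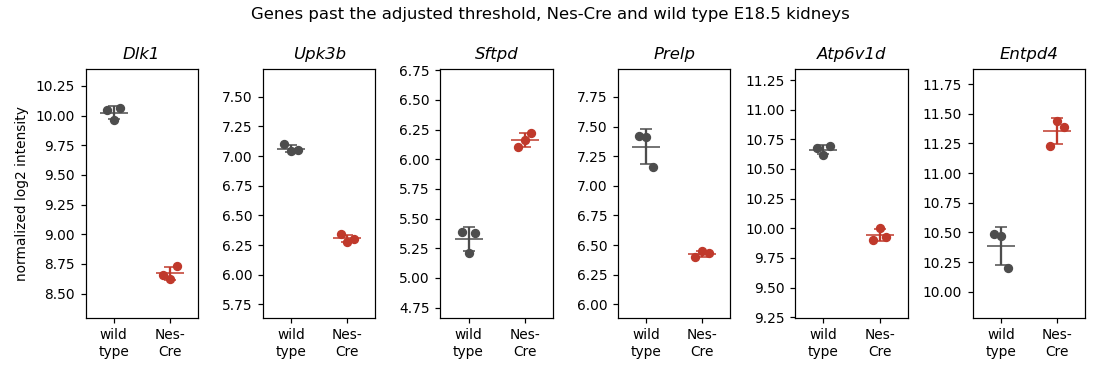
Normalized log2 intensity of the 6 genes past the adjusted threshold in each of 3 wild-type (grey) and 3 *Nes*-Cre (red) kidneys, with mean and SD as bars; every vertical axis spans the same number of log2 units. The normalized levels of the groups do not overlap for any of the 6, and the gap is widest for *Dlk1*.

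The other groups of the series were set beside these levels after normalizing all 24 arrays together, although sets of arrays differ in background. *Entpd4* was at 11.28 to 11.48 in *Nes*-Cre kidneys and at 10.26 to 10.82 in the 21 other arrays, so the *Nes*-Cre group stood above all others, *Nes*-Cre *Wt1*co/co included. *Prelp* was at 6.57 to 6.62 in *Nes*-Cre kidneys, below all 21 other arrays, whose lowest was 6.89. *Dlk1* was not extreme in this way. Its *Nes*-Cre levels of 8.72 to 8.82 lay above those of 2 *Pax8*+/Cre arrays, at 8.52 and 8.56, and far below the highest array, *Nes*-Cre *Wt1*co/co replicate 1 at 12.80. *Atp6v1d* was low in 3 groups. It was at 9.97 to 10.06 in *Nes*-Cre kidneys, at 10.22 to 10.32 in the *Nes*-Cre *Wt1*co/co group and at 9.83 to 10.13 in *Wnt4*+/CreGFP *Wt1*co/co kidneys. It was at 10.30 or more in every array of the other groups, whose lowest array overlapped the *Nes*-Cre *Wt1*co/co range.

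**Figure D2:**
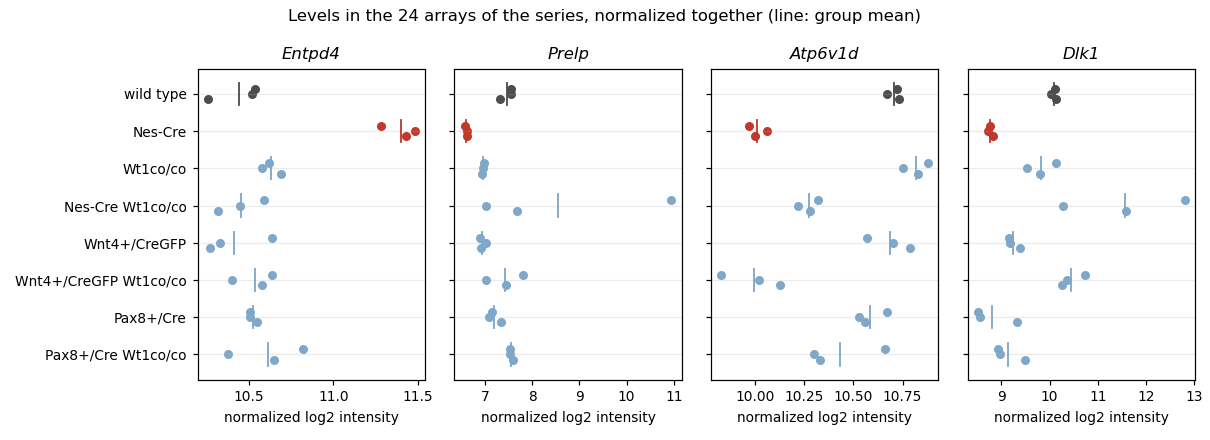
Normalized log2 intensity (horizontal axes) of *Entpd4*, *Prelp*, *Atp6v1d* and *Dlk1* in the 24 arrays of the series by group, each point an array and each line a group mean. *Entpd4* is highest and *Prelp* lowest in *Nes*-Cre kidneys, and *Atp6v1d* is low in 3 groups.

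On the RefSeq map (assembly GRCm38.p6) *Plek2*, a gene of the pleckstrin family, lies 2 protein-coding genes from *Atp6v1d*. It was at 5.52, 5.30 and 6.21 in wild-type kidneys and at 6.63, 6.97 and 6.81 in *Nes*-Cre kidneys. Its difference of 1.13 ± 0.22 had the opposite sign and did not pass the test (adjusted p = 0.132). *Acot3* and *Acot4*, which encode related acyl-CoA thioesterases, also had differences of opposite sign. *Acot3* was at 7.39 to 7.92 in wild-type and 8.32 to 8.80 in *Nes*-Cre kidneys (0.86 ± 0.17, adjusted p = 0.129). *Acot4* was at 7.86 to 8.10 and at 7.20 to 7.62 (-0.62 ± 0.13, adjusted p = 0.135). These 3 genes were chosen after their values were seen, and *Acot* paralogues may share signal.

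The genes next in order by p-value, whose arrays did not overlap, are given as not called. Among 10 on the higher side were *Slc27a2*, a fatty acid transporter and acyl-CoA synthetase of the proximal tubule (0.59, adjusted p = 0.053), and *Slc6a12*, a betaine transporter (0.78, adjusted p = 0.053). *Aldoc*, an aldolase, differed by 0.79 (adjusted p = 0.053) and *Umod*, the uromodulin of the thick ascending limb, by 0.80 (adjusted p = 0.0749). *Serpina6*, which encodes corticosteroid-binding globulin, was at 8.86, 9.38 and 9.10 in wild-type and at 10.44, 9.97 and 10.14 in *Nes*-Cre kidneys (1.07, adjusted p = 0.0745). *D14Ertd449e*, named *Tmem254a* in RefSeq, which also lists the near copies *Tmem254b* and *Tmem254c*, differed by 1.15 (adjusted p = 0.065). The others were *Spink8*, a peptidase inhibitor, *1190020J12Rik*, named *Nccrp1* in RefSeq, *Tnc*, which encodes the matrix protein tenascin C, and *Oasl2*, described with the interferon response. *Tnc* was detected in no wild-type array and entered the test through the *Nes*-Cre arrays. It differed by 0.52, but by 0.21 with neqc. Changes of other genes near the floor also shrank with neqc, to 0.14 for *Slc6a12*, 0.32 for *Aldoc* and from 0.99 to 0.24 for *1190020J12Rik*. Those of *Slc27a2*, *Umod*, *Serpina6*, *D14Ertd449e* and *Spink8* did not shrink.

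Among 8 on the lower side, several encode proteins of connective tissue and smooth muscle. *Actg2*, the gamma actin of smooth muscle, was at 9.77, 9.39 and 9.07 in wild-type and at 7.57, 8.33 and 7.50 in *Nes*-Cre kidneys, the largest gap of this group with the widest spread (-1.61 ± 0.25, adjusted p = 0.0749). *Lum*, which encodes the collagen-binding proteoglycan lumican, was at 9.06, 9.33 and 9.37 and at 8.11, 8.37 and 8.47 (-0.94 ± 0.13, adjusted p = 0.0611). *Pi16*, a peptidase inhibitor of fibroblasts, differed by -1.25 (adjusted p = 0.071), but by -0.21 with neqc. It was detected in 1 of 3 *Nes*-Cre arrays. *Hspb6*, a small heat shock protein of muscle, differed by -0.45 (adjusted p = 0.114). *Scara5*, a ferritin receptor, differed by -0.93 (adjusted p = 0.0513), but by -0.17 with neqc. *Slpi*, a secreted peptidase inhibitor, was detected in no *Nes*-Cre array and differed by -0.94 (adjusted p = 0.053), but by -0.15 with neqc. *N6amt2*, named *Eef1akmt1* in RefSeq, differed by -0.83 (adjusted p = 0.101). With neqc *Actg2*, *Lum* and *N6amt2* kept changes of -1.62, -1.04 and -0.84. With a prior variance that follows intensity, all 24 genes named by this rule were called, among 46 higher (0.579%) and 41 lower genes (0.516%).

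Interferon response genes had higher levels as a group. Interferons bind receptors on the cell surface and, through transcription factors that include Irf9, switch on antiviral genes. Of 41 genes on the list, 37 were on the array and 20 were tested. None was called by limma. At an unadjusted p under 0.05, 14 were higher (against 5.97% of all genes) and 0 lower (against 6.55%). With the prior variance following intensity, 6 were called, all higher, against 0.579% of all genes higher and 0.516% lower. These shares of all genes also stand beside such counts of the lists below in the same comparison. Arrays did not overlap for 13 of 20 on the higher side, or 65.0% against 8.70% of all genes, and for 0 on the lower side. The median change was 0.52, against -0.01 for all genes.

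*Gbp3*, which encodes an interferon-induced GTPase, was at 5.89, 6.37 and 5.49 in wild-type kidneys and at 7.82, 6.95 and 7.00 in *Nes*-Cre kidneys (1.34 ± 0.28, adjusted p = 0.14). *Oasl2*, of the oligoadenylate synthetase family, was at 5.96, 6.52 and 5.99 and at 7.66, 7.09 and 7.26. It was not detected in wild-type kidneys, and the fitted change was 1.18 (adjusted p = 0.0953), or 0.37 with neqc. For both genes *Nes*-Cre replicate 1 was the highest array. *Usp18*, which restrains interferon signalling, was at 5.86, 6.77 and 5.96 and at 7.96, 6.83 and 6.98 (1.06 ± 0.34, adjusted p = 0.288). In *Usp18* the highest wild-type array, replicate 2, came close to the lower *Nes*-Cre arrays. *Ifi27*, *Ifit3*, *Iigp2* (*Irgm2* in RefSeq) and *Bst2* differed by 1.06, 0.97, 0.89 and 0.72, and *Irf1*, *Psmb9*, *Ifi35* and *Tapbp* by -0.05 to 0.14. *Ifit3*, like *Oasl2*, was not detected in wild-type kidneys, where its value is only a bound. Both entered the test through the *Nes*-Cre arrays, and both count among the 13 that did not overlap.

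**Figure D3:**
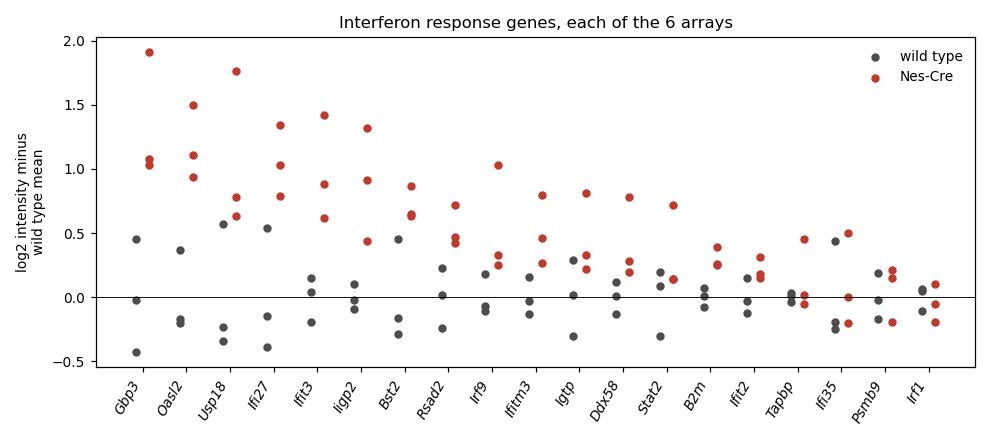
Log2 intensity minus the wild-type mean (vertical axis) of 19 interferon response genes, in order of their change, in 3 wild-type (grey) and 3 *Nes*-Cre (red) arrays. Points of the groups separate for 12 of these, and the highest *Nes*-Cre point of many genes is replicate 1.

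The array mean of the list, relative to the wild-type mean, was -0.14, 0.20 and -0.05 in wild-type kidneys and 0.87, 0.40 and 0.45 in *Nes*-Cre kidneys. Without *Nes*-Cre replicate 1 the median change was 0.33, with 12 genes higher at an unadjusted p under 0.05. It was 0.44 to 0.61 without each other array and 0.42 with sex as a covariate. Summed intensity of the list was 6210 to 7820 in wild-type and 8840 to 11900 in *Nes*-Cre kidneys. Macrophage markers had a summed intensity of 3930 to 4200 and 3710 to 4120 and a median change of -0.01 over 16 tested, with 3 of 21 detected in no array.

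The levels of these genes in all 24 arrays did not set the *Nes*-Cre group apart. *Oasl2* was at 7.24 to 7.79 in *Nes*-Cre kidneys, with 9 of the 21 other arrays above the lowest of these, and it was highest in *Pax8*+/Cre kidneys, at 8.07, 8.13 and 8.44. *Gbp3* was at 7.10 to 7.95 in *Nes*-Cre and at 8.09, 7.79 and 8.33 in *Pax8*+/Cre kidneys. The lowest group for *Oasl2* and *Gbp3* was *Wnt4*+/CreGFP *Wt1*co/co, at 5.49 to 6.79 and 5.30 to 6.05, followed by wild type, at 6.14 to 6.69 and 5.61 to 6.54, and both ranges overlapped.

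Promoters of these genes are shown because the genes had higher levels as a group. The interferon-stimulated response element was searched as GAAA, any 2 bases and GAAA in a row, on both strands, in the RefSeq promoters (GRCm38.p6, 250 bases before to 50 after the start). Promoters were found for 17 of the 20 genes tested, and 10 of the 17 (58.8%) held a match, against 3.99% of 27025 genes. A gene with several promoters was counted if any held a match. The list was made of genes that respond to interferon, but the share covers only members that passed the detection filter in these arrays. *Ifit3* and *Oasl2* passed it through the *Nes*-Cre arrays, so the share is a description. A match is a description of sequence and not a binding site. Matches were in 8 of 10 genes whose arrays did not overlap and in 2 of the 7 others, a split by these same arrays that was not tested. The 250 bases before the start of the 5 genes with the largest changes among the 17 follow, with matches in capitals. Of several promoters of a gene, one with a match is shown where there is one.
Gbp3, chr3:142559794-142560043, plus strand: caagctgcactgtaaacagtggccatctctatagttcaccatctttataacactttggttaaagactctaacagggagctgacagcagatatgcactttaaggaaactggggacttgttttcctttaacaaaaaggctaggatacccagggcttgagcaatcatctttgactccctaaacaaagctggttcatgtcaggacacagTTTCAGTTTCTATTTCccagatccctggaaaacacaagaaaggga
Oasl2, chr5:114896684-114896933, plus strand: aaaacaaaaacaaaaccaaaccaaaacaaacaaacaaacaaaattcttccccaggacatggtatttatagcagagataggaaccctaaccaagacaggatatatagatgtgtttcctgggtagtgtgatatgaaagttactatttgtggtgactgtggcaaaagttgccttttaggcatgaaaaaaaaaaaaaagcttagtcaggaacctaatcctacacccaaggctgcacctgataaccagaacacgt
Ifit3, chr19:34583279-34583528, plus strand: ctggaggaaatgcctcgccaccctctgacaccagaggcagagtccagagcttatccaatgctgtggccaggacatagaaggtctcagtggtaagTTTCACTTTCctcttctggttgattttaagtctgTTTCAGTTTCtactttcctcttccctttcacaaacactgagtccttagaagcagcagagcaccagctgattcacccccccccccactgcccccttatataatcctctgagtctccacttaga
Irgm2, chr11:58214727-58214976, plus strand: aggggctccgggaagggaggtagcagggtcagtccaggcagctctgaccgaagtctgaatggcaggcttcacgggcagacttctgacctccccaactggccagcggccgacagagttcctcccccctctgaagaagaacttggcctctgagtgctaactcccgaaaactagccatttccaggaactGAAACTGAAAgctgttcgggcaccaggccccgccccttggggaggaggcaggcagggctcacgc
Bst2, chr8:71537473-71537722, minus strand: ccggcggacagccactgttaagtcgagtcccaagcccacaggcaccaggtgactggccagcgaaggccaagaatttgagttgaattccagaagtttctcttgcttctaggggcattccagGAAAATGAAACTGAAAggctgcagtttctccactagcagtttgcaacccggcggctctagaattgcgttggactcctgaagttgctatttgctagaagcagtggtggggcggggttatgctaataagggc
The matches of *Gbp3* began 45 and 39 bases before the start and overlap each other, that of *Irgm2* 64 bases before it. Those of *Bst2* began 130 and 124 bases before it, also overlapping, and those of *Ifit3* 156 and 122 bases before it. No match was in the window of *Oasl2*. *Bst2*, an antiviral membrane protein also called tetherin, was at 6.96, 7.71 and 7.10 in wild-type kidneys and at 7.89, 7.90 and 8.13 in *Nes*-Cre kidneys.

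Markers of differentiated tubules had higher levels in *Nes*-Cre kidneys without passing the main test. Of the loop of Henle and distal tubule list 17 of 26 were tested. Of these 11 did not overlap on the higher side (64.7%, against 8.70% of all genes) and 0 on the lower side (against 10.3%). The median change was 0.30, and the summed intensity was 13300 to 14100 in wild-type and 16100 to 17400 in *Nes*-Cre kidneys. *Defb1*, an antimicrobial peptide of the distal nephron, was at 5.51, 6.15 and 6.07 and at 6.93, 7.00 and 6.70 (0.97, adjusted p = 0.122). *Umod* was at 8.65, 8.83 and 8.68 and at 9.57, 9.27 and 9.71. All *Nes*-Cre arrays were above all wild-type arrays in both genes. At an unadjusted p under 0.05, 11 genes of the list were higher (against 5.97% of all genes). None was called by limma. With the prior variance following intensity (the intensity trend) 4 were called higher, against 0.579% of all genes.

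Proximal tubule genes gave a smaller share. Of 46 listed 34 were tested. Of these 11 did not overlap on the higher side (32.4%, against 8.70% of all genes) and 1 on the lower side (2.94%, against 10.3%). The median change was 0.24. None was called by limma. At an unadjusted p under 0.05, 13 were higher (against 5.97% of all genes) and 0 lower (against 6.55%). With the intensity trend 3 were called higher (against 0.579%), *Slc27a2* among them (adjusted p = 0.00282). *Kap*, an androgen-regulated protein of the proximal tubule, was at 7.27, 7.53 and 7.01 and at 8.68, 7.81 and 8.08 (0.92, adjusted p = 0.193). *Lrp2*, the megalin receptor, was lower instead, at 5.62, 5.87 and 5.55 and at 5.48, 5.53 and 5.29 (-0.24, adjusted p = 0.429). *Kap* is known to respond to androgen, and within each group its levels were highest in the arrays with Y-linked transcripts, wild type replicate 2 and *Nes*-Cre replicates 1 and 3. The part of sex in this difference was not tested for *Kap* alone, and the median of the list was 0.19 with sex as a covariate.

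In the collecting duct list 10 of 23 tested genes did not overlap on the higher side (43.5%, against 8.70% of all genes). On the lower side there were 0 (against 10.3%), and the median was 0.23. *Aqp2*, the water channel that responds to vasopressin, was at 7.79, 7.77 and 7.55 and at 8.79, 8.36 and 8.19 (0.74 ± 0.16, adjusted p = 0.14). *Aqp4*, a basolateral water channel, was at 8.30, 8.46 and 8.34 and at 8.98, 8.78 and 8.76 (0.48 ± 0.09, adjusted p = 0.131). Limma called none. At an unadjusted p under 0.05, 11 were higher (against 5.97% of all genes) and 0 lower (against 6.55%). With the intensity trend *Aqp2* and *Aqp4* were called higher (adjusted p = 0.0293 and 0.0315), against 0.579% of all genes. The *Nes*-Cre lineage is not known to include the ureteric bud, from which the collecting duct arises. Whether more cells of a type or more RNA per cell gave such differences cannot be told apart in whole kidneys.

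Progenitor, podocyte and renal vesicle genes had no called member. Of 12 cap mesenchyme genes tested, 11 had lower means, 3 did not overlap on the lower side (25%, against 10.3% of all genes) and the median was -0.16. *Six2*, the transcription factor that keeps nephron progenitors, was at 6.51, 6.64 and 6.67 and at 5.47, 6.39 and 6.49, so that *Nes*-Cre replicate 1 gave most of the change of -0.49 (adjusted p = 0.474). *Cited1*, another marker of uninduced progenitors, was at 8.02 to 8.10 and at 7.76 to 7.88 (-0.24, adjusted p = 0.294). The podocyte list held 0 of 17 genes that did not overlap on the higher side (against 8.70% of all genes). It also held 0 on the lower side (against 10.3%), and its median was 0.02. In the renal vesicle and S-shaped body list 1 of 18 did not overlap, on the lower side (5.56%), and the median was -0.02. In these 3 lists limma called 0 genes with or without the intensity trend, and at an unadjusted p under 0.05 it gave 2 lower genes, all of the cap mesenchyme.

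**Figure D4:**
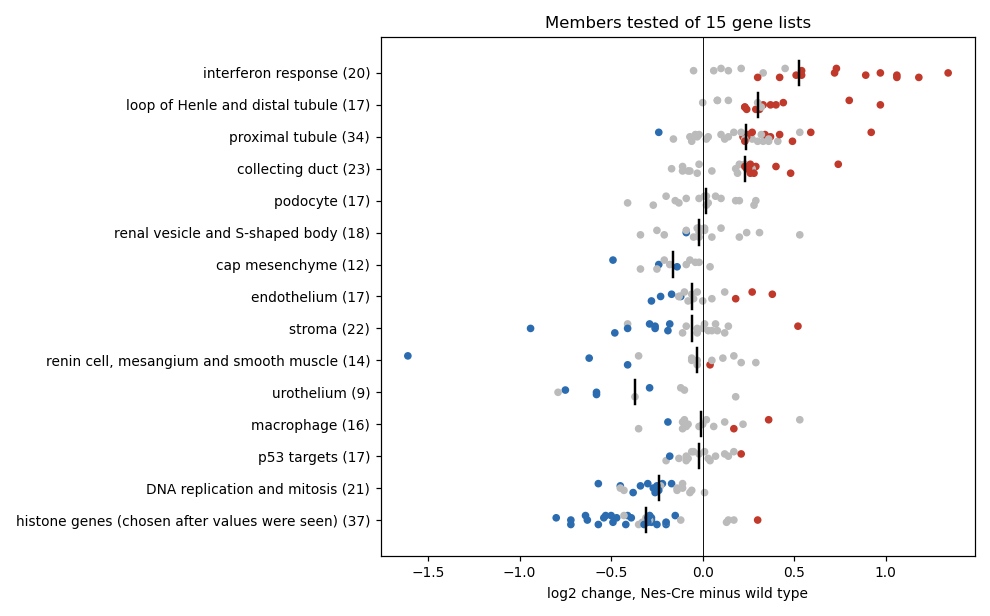
Log2 change, *Nes*-Cre minus wild type, of the tested members of 15 lists (number in parentheses); black bars are medians. Red points are genes whose *Nes*-Cre arrays were all higher, blue points genes whose *Nes*-Cre arrays were all lower, and grey points genes whose arrays overlapped; interferon and tubule lists lie to the right, and replication, histone and urothelium lists to the left.

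Urothelium genes had lower levels as a group. In the urothelium list 4 of 9 tested genes did not overlap on the lower side (44.4%, against 10.3% of all genes). On the higher side there were 0 (against 8.70%), and the median was -0.37. *Upk3b* was the only member called by limma in the main test, and with the intensity trend 2 were called lower (against 0.516% of all genes). *Upk2*, a uroplakin, was at 8.89, 9.03 and 8.92 and at 8.24, 8.28 and 8.58 (-0.58 ± 0.11, adjusted p = 0.129). Summed intensity of the list was 1440 to 1660 in wild-type and 1100 to 1400 in *Nes*-Cre kidneys. The median was -0.26 without *Nes*-Cre replicate 1 and -0.57 without wild type replicate 3.

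In the list of renin cells, mesangium and smooth muscle the median was -0.03 over 14 genes, of which 6 had higher and 8 lower means. Its smooth muscle genes went both ways. *Tagln* differed by 0.29, *Acta2* by 0.04, *Smtn* by -0.03 and *Mylk* by -0.06, while *Actg2*, given above, was the lowest of the list. *Myh11*, the myosin heavy chain of smooth muscle, was at 8.02, 7.84 and 7.65 and at 6.95, 7.23 and 7.47 (-0.62, adjusted p = 0.184), and *Des*, which encodes desmin, differed by -0.41 (adjusted p = 0.193). Of 22 stroma genes 8 did not overlap on the lower side (36.4%, against 10.3% of all genes). There was 1 on the higher side (4.55%, against 8.70%), and the median was -0.06. *Col1a1*, a collagen chain, differed by -0.48 (adjusted p = 0.302) and *Tnc* by 0.52 in the opposite direction (adjusted p = 0.071). *Tnc* was not detected in wild-type arrays, where its value is only a bound. At an unadjusted p under 0.05, 7 stroma genes and 3 genes of the renin, mesangium and smooth muscle list were lower and 1 stroma gene was higher, with none called by limma in either list. With the intensity trend *Tnc* was called higher, 2 stroma genes lower, *Lum* among them, and 1 gene of the other list lower, *Actg2*. *Stmn2*, a microtubule regulator of neurons, was at 6.83, 6.18 and 6.87 and at 4.90, 5.66 and 5.41 (-1.30 ± 0.24, adjusted p = 0.125), in a nerve list of which 4 genes were tested. The part of tissue around the kidney in the changes of *Dlk1*, *Prelp* and *Upk3b* was not tested.

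Genes of cell division had lower levels as well. Of 21 tested genes of DNA replication and mitosis, 20 had lower means, and the median was -0.24. Arrays did not overlap for 11 on the lower side (52.4%, against 10.3% of all genes) and for 0 on the higher side (against 8.70%). Limma called none. At an unadjusted p under 0.05, 10 were lower (against 6.55% of all genes) and 0 higher (against 5.97%). With the intensity trend 1 was called lower (against 0.516%). *Mcm7*, a subunit of the replicative helicase, was at 6.57, 6.85 and 7.07 and at 6.39, 6.15 and 6.24 (-0.57 ± 0.14, adjusted p = 0.18). *Aurka*, a mitotic kinase, was at 9.94, 10.21 and 10.25 and at 9.90, 9.53 and 9.62 (-0.45 ± 0.13, adjusted p = 0.246). Summed intensity of the list was 20800 to 21800 in wild-type and 17500 to 18500 in *Nes*-Cre kidneys.

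Histone genes, a group chosen after values were seen, went the same way. Of 37 tested, 25 did not overlap on the lower side (67.6%, against 10.3% of all genes). There was 1 on the higher side (2.70%, against 8.70%), and the median was -0.31. None was called by limma. At an unadjusted p under 0.05, 25 were lower (against 6.55% of all genes) and 1 higher (against 5.97%). With the prior variance following intensity 12 were called, all lower (against 0.516%). *Hist1h3d* differed by -0.64 (adjusted p = 0.0611) and *Hist1h3a* by -0.80 (adjusted p = 0.071). Copies of histone genes are nearly identical, so single members are uncertain. The median was -0.26 to -0.37 without each array.

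Lists related to Cre and growth had medians near 0, though the DNA damage and repair list leaned to the lower side. The p53 target list had a median of -0.02 over 17 genes. Arrays did not overlap for 1 gene in each direction (5.88%, against 8.70% of all genes higher and 10.3% lower). *Cdkn1a*, the cell cycle inhibitor that p53 induces, was at 8.39, 8.47 and 8.55 and at 8.70, 8.78 and 8.46 (0.17, adjusted p = 0.539). In the DNA damage and repair list 14 of 19 genes had lower means, and the median was -0.09. Arrays did not overlap for 7 on the lower side (36.8%, against 10.3% of all genes), among them *Fancd2* (-0.41, adjusted p = 0.251). On the higher side there was 1 (5.26%, against 8.70%). In the growth hormone and IGF axis 3 of 18 genes did not overlap on the higher side (16.7%, against 8.70% of all genes). On the lower side there were 4 (22.2%, against 10.3%), and the median was -0.03. *Igf1*, the main growth factor downstream of growth hormone, was at 6.72, 6.60 and 6.61 and at 6.39, 6.27 and 6.27 (-0.33 ± 0.08, adjusted p = 0.193), with a detection p-value under the threshold in 3 of the 6 arrays. All its *Nes*-Cre arrays were below all wild-type arrays. None of these genes was called by limma, and at an unadjusted p under 0.05 the 3 lists held 0, 3 and 4 lower and 0, 0 and 2 higher genes. With the intensity trend 1 gene of the growth hormone and IGF list was called higher. *Hspa1a*, the inducible heat shock protein, was at 6.56, 6.55 and 6.73 and at 7.43, 8.43 and 7.06 (1.03, adjusted p = 0.267).

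Respiratory chain and ribosomal protein genes, as groups used by all cells, had medians of 0.03 over 61 genes and -0.02 over 49 genes. Median changes of the circadian, immediate early and glucocorticoid lists were -0.02, 0.03 and -0.10. The hypoxia, cholesterol, heat shock and erythroid lists had medians of 0.09, 0.08, 0.12 and 0.07, and endothelium -0.06. In the cholesterol list 6 of 16 tested genes did not overlap on the higher side (37.5%, against 8.70% of all genes). On the lower side there were 0 (against 10.3%). For hypoxia these shares were 31.6% higher and 10.5% lower, and for heat shock 21.1% and 5.26%. For erythroid genes they were 22.2% and 0, and for endothelium 17.6% and 23.5%. Ureteric tip genes had a median of -0.11 over 8 tested and genes of kidney identity one of -0.03 over 9, with 11 of 13 of the latter detected in at least 1 array. None of the members of these lists was called by limma, and with the intensity trend 0 to 1 were called higher and 0 to 2 lower in each. At an unadjusted p under 0.05 each held 0 to 3 higher and 0 to 2 lower genes.

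Markers of neighbouring or foreign tissue gave few tested genes. The liver list had a median of -0.05 over 7 genes and the fat list of 0.07 over 3. Striated muscle and cartilage had medians of 0.05 and -0.18 over 3 genes each, and the nerve list of -0.23 over 4. The adrenal and gonad lists had 1 tested gene each, at -0.06 and -0.16. None was called by limma, and at an unadjusted p under 0.05 there were 1 higher striated muscle gene and 2 lower nerve genes. With the intensity trend 1 nerve gene, *Stmn2*, was called lower.

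The same genes were then set beside the other set of arrays, where *Wt1*co/co kidneys with the transgene were compared with those without it. It shares no sample with the comparison above, but Cre deletes *Wt1* there, so it does not repeat the transgene alone. *Nes*-Cre *Wt1*co/co replicate 1 stood apart, with correlations of 0.846 to 0.888 with the other 5 arrays, which correlated among themselves at up to 0.989. The methods report that a sample of this group did not pass quality control but not which, so values are given with and without replicate 1. Among the 7939 genes 4 were higher (0.0504%) and 4 lower (0.0504%) with all 6 arrays, and 750 (9.45%) and 869 (10.9%) without that replicate.

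None of the 6 genes was called there with all arrays. *Atp6v1d* was the only one of the 6 that went the same way, at -0.56 (adjusted p = 0.0709), and it was called without replicate 1, at -0.57 (adjusted p = 0.0132). *Dlk1* went the opposite way at 1.81 (adjusted p = 0.178), or 1.12 without replicate 1 (adjusted p = 0.0625). *Upk3b* and *Prelp* had changes of 1.67 and 1.58 there, or 0.62 and 0.39 without replicate 1. *Sftpd* and *Entpd4* had changes of -0.75 and -0.18, or -0.36 and -0.24 without it. Of the 24 genes named by rule 21 had the opposite sign in that set, with and without replicate 1, against 60.5% of all 7939 genes with it and 62.2% without it. They were chosen for their change in the first comparison, so this is a description. Those with the same sign were *Atp6v1d*, *Oasl2* and *Tnc*, and *Scara5* in place of *Tnc* without replicate 1.

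The difference between the sets was tested directly in the 12 arrays. It passed for 569 genes (7.17%), and for 1762 (22.2%) without *Nes*-Cre *Wt1*co/co replicate 1. Of the 6 genes it passed for *Dlk1*, *Sftpd* and *Entpd4*, and without that replicate also for *Prelp* (adjusted p = 0.0024). *Sftpd* was not detected in wild-type kidneys, so its difference rests on a bound. For *Atp6v1d* the change differed by -0.15 ± 0.11 (adjusted p = 0.417).

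**Figure D5:**
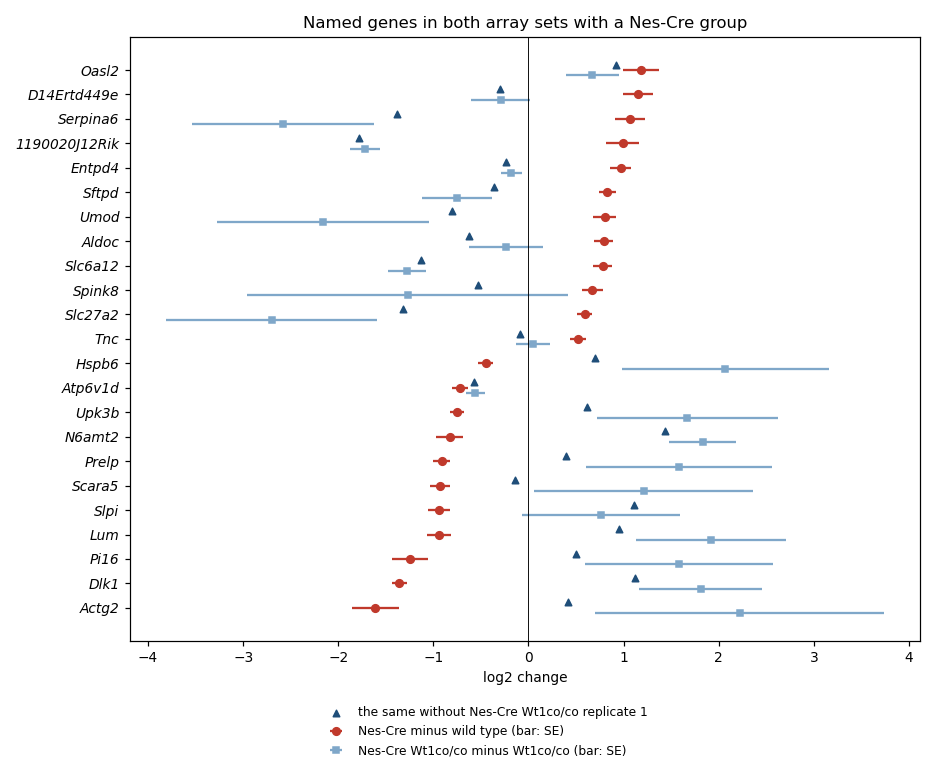
Log2 change (horizontal axis) of 23 genes named by rule, for *Nes*-Cre minus wild type (red circles, bars SE), the same contrast in *Wt1*co/co kidneys (light squares, bars SE) and the latter without replicate 1 (dark triangles). Most genes lie on opposite sides of 0, and *Atp6v1d* and *Oasl2* lie on the same side in all 3.

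Interferon response genes went the same way in both sets. In the *Wt1*co/co set 11 of the 20 genes did not overlap on the higher side, against 16.2% of all genes there, and 1 on the lower side, against 19.1%. The median change was 0.56 with all arrays, when none was called. At an unadjusted p under 0.05, 10 were higher and 1 lower, against 805 and 1055 of all 7939 genes. The median was 0.59 without replicate 1, when 13 were called higher (against 9.45% of all genes) and none lower (against 10.9%). Macrophage genes had a median of 1.09 in that set, with 15 of 16 not overlapping on the higher side, against 16.2% of all genes there. Their part in the interferon values there was not tested. The proximal tubule list and the loop of Henle and distal tubule list went the opposite way. Their medians were -1.85 and -1.79 with all arrays and -0.91 and -0.80 without replicate 1. The collecting duct list had a median of -0.61 with all arrays but 0.01 without replicate 1.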

How the data were processed

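RNA from whole kidneys was read on Illumina MouseRef-8 v2 BeadChips, with 3 arrays per group. The authors deposited a bead intensity per gene symbol, not normalized between arrays, with a detection p-value per gene and array. They also deposited, in another table, a linear ratio to the median of the wild-type arrays, in which the columns of replicates 1 and 3 were exchanged relative to the intensities, so the ratio was used only as an alternative. GeneSpring is the software the methods name. The sources used here do not give how probes were combined per gene.

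Intensities of the 6 arrays were corrected with normexp in limma 3.58.1 (R 4.3.3), quantile normalized and put on a log2 scale. The background mean and spread of each array were read at detection p-values of 0.5 and 0.16 (within 0.01), and an offset of 16 was added. The deposited detection p-value was not strictly ordered by intensity, since 683 to 734 undetected genes per array lay above the level at which others were detected. Genes were tested with lmFit and eBayes, p-values were adjusted by Benjamini and Hochberg over all 7939 genes, and calls were made at 0.05. The steps were tested on simulated data. Python 3.11.15 and matplotlib 3.10.9 were used for promoters and plots.

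Named genes were, per direction, up to 12: called genes, then those of lowest p whose arrays did not overlap. *Nes* and up to 3 members of each of 34 lists with the largest change could also be named, and other genes were chosen after their values were seen. Genes with near copies, which the rule would leave out, were kept and marked as uncertain. Members and lists were chosen with earlier results of these data known. RefSeq names were found for 7624 of the genes tested (96.0%). Where a gene was below detection in all arrays of a group its value there is only a bound, and no fold is given, since changes at such levels moved with the background correction. Alternatives were other background corrections, offsets, scalings, filters, weights and covariates, a fit of all 24 arrays and each array left out. The number of arrays limits the precision. Levels of *Wt1* were not analysed here, and some genes are not reported here.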

Additional observations from a re-analysis of the deposited data

Results flagged for a closer look

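The change with the *Nes*-Cre transgene differed between *Wt1* wild-type kidneys and *Wt1*co/co kidneys for 7 of the 24 genes named by rule, by a test of the difference itself in the 12 arrays (limma). That is 29.2% of them, against 7.17% of all genes. Without *Nes*-Cre *Wt1*co/co replicate 1 it passed for 18 of the 24 (75%), against 22.2% of all genes. The 24 were chosen by the change that enters this difference, so these shares are a description. A positive difference means a higher change in *Wt1* wild-type kidneys. It was 1.16 for *Entpd4* (adjusted p = 0.00488), 1.59 for *Sftpd* (0.0348), 1.99 for *Slc6a12* (0.00386), 1.43 for *D14Ertd449e* (0.0489) and 2.61 for *1190020J12Rik* (0.00197). *Sftpd* was not detected in wild-type kidneys, so its difference rests on a bound, and its change there moved with the background correction. The difference was -3.13 for *Dlk1* (0.0268) and -2.69 for *N6amt2* (0.0077). Each of the 7 had changes of opposite sign in the sets, for example -1.36 and 1.81 for *Dlk1* and 0.99 and -1.72 for *1190020J12Rik*. Cre deletes *Wt1* in one set only, so the transgene and the deletion cannot be told apart there.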

How the results depend on the processing

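Counts of called genes moved with the processing. Against 2 higher and 4 lower genes, there were 42 and 39 without background correction, 18 and 25 with an offset of 50, 9 and 13 with detection in all 6 arrays, 10 and 18 with array weights and 46 and 41 with a prior variance that follows intensity. With 75th percentile scaling 5 were higher and 6 lower, with neqc 2 and 5, and with all 24 arrays 2 and 4, of which 1 in each direction was called in the 6 arrays as well. Fewer were called without the detection filter (1 and 1), with sex as a covariate (0 and 1) and with the deposited ratio values (0 and 0). With single arrays left out 0 to 1 were higher and 1 to 2 lower. Arrays of the same replicate number did not deviate together (r = -0.22, -0.21 and -0.12), so the numbers do not pair them, and with the replicate number as a block 0 and 0 were called (lowest adjusted p = 0.0507).

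*Nes* turned to 0.02 with the deposited ratio values, without wild type replicate 1 and without *Nes*-Cre replicate 2, and was -0.09 to 0.02 with single arrays left out. In *Wt1*co/co kidneys, 0 to 1 of the 6 called genes were called the same way with single arrays left out, and the exception was *Atp6v1d* without *Nes*-Cre *Wt1*co/co replicate 1. Without that array, an alternative chosen after seeing the data, the difference passed for 1762 genes against 569. The cause was not tested. For single named genes 299 alternative values kept direction and side of the threshold, 59 lost the call, 83 gained it and 3 changed sign, all 3 for *Nes*. The median of the interferon list was 0.31 to 0.61 and that of the urothelium list -0.57 to -0.11 over the alternatives.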
